A study of Mus musculus with 16 samples.

Results

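Mature miRNAs of mouse 3T9 fibroblasts were compared between 2 and 4 h of serum and the mean of 0 and 12 h, to describe levels that passed through a peak or a dip which a straight trend over the course misses. The contrast used 8 of the 16 libraries directly, 4 from 2 and 4 h and 4 from 0 and 12 h, and the libraries of 1, 6, 8 and 10 h helped to estimate the spread and the trend. 3T9 is an immortalised line of embryonic fibroblasts without further genetic change named in the labels. In all groups the cells had first been kept without serum for 72 h, so the 0 h libraries are quiescent cells. The 2, 4 and 12 h libraries are the same cells after that time in complete medium with 10% fetal bovine serum. Each time had 1 library from each of 2 independent experiments, and each experiment was sequenced in a run of its own, so experiment and run cannot be told apart.

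A miRNA is cut from a hairpin transcript first by Drosha in the nucleus and then by Dicer in the cytoplasm, which leaves a short duplex of a 5p and a 3p strand. One strand, the guide, is usually kept in an Argonaute protein and pairs with target mRNAs mainly through its seed, bases 2 to 8, while the other, the passenger, is usually degraded soon after. Guides tend to be long-lived and passengers short-lived. Serum returns resting fibroblasts to the cell cycle through a brief wave of immediate-early transcription, and miR-155 and the miR-132/212 hairpins are known targets of such signalling.

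The sequences below are the 11 miRNAs that the results turn on, those peak- or dip-shaped and not past the linear trend. They were copied from RefSeq mature miRNAs (GRCm38.p6, 5′ to 3′, seed in capitals), where 28 of the 29 miRNAs past the contrast and 372 of the 449 tested were matched by name. The first 7 were peak-shaped and the last 4 dip-shaped, and 5 of the 11 passed against both ends.
miR-155-3p: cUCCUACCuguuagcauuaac
miR-146b-3p: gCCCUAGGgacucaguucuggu
miR-29b-1-5p: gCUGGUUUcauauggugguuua
miR-182-3p: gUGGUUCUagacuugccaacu
miR-212-5p: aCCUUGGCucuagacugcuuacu
miR-219a-1-3p: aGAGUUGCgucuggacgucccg
let-7e-3p: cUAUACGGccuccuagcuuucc
let-7c-1-3p: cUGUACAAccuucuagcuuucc
miR-181b-1-3p: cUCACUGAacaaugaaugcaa
miR-181a-1-3p: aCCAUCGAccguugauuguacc
miR-31-3p: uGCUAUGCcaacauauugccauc
All 11 seeds differ, and none of the 28 matched miRNAs past the contrast shared its seed with another of them. let-7c-1-3p and let-7e-3p, passengers of the let-7 family, moved in opposite directions and have different seeds, while let-7c-5p and let-7e-5p share theirs.

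Libraries held 5852087 to 7783249 miRNA reads and 737 to 816 detected miRNAs. A count of 0 allows 0.385 to 0.513 CPM, the reads scaled to equal library sizes, in a library, which covers counting error only. Log2 CPM of each library correlated with the mean of the others at 0.992 to 0.997 across miRNAs, which are not independent, and no library stood apart. The 7 fibroblast and mesenchymal markers were all present and summed to 334302 to 367938 CPM at 2 and 4 h and 336852 to 427229 CPM at 0 and 12 h. Blood markers summed to 93.3 to 138.7 CPM at 2 and 4 h and 86.7 to 157 CPM at 0 and 12 h, with miR-486a-5p holding most reads. Epithelial markers summed to 94.0 to 109.4 CPM and 64.6 to 138 CPM, mostly miR-205-5p. Those of neural cells reached at most 11.5 CPM, and 0 of the tested markers passed the contrast (7 fibroblast, 3 of 7 blood, 1 of 6 epithelial, 1 of 4 neural and 1 of 3 muscle markers had enough reads for the test).

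At 2 and 4 h 29 of 449 tested miRNAs differed from the mean of 0 and 12 h (6.46%; adjusted p under 0.05 by edgeR's quasi-likelihood F-test, adjusted after Benjamini and Hochberg). Of these 17 were higher (3.79%) and 12 lower (2.67%), and the median log2 difference over all tested miRNAs was -0.03. The contrast alone also responds to a straight line, because the mean time of 2 and 4 h lies before that of 0 and 12 h. A miRNA was therefore called peak-shaped or dip-shaped only where its level at 2 and 4 h lay beyond both the 0 h and the 12 h level. This held for 11 and 11 of the 29 (4.9% of those tested), and the other 7 lay between the ends. The shape itself involves no test, and over all 449 tested miRNAs 83 were peak-shaped and 119 dip-shaped. The linear trend over 16 libraries passed for 141 of 449 miRNAs (31.4%). It missed 11 of the 22 shaped miRNAs (2.45% of those tested), 7 peak-shaped and 4 dip-shaped. Peak and dip name these shapes below, and only 5 of the 11 passed against both ends. Without 2 h replicate 2 the 29 became 16 and the 11 became 6, and leaving out replicate 2 of 0 h or of 4 h gave 18 in place of 29. All 29 had 1 sign in both experiments taken singly, which is largely built in because both entered the fit.

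miR-155-3p, the passenger of the immune-regulating miR-155, had the largest peak. It is cut from an exonic hairpin of the noncoding gene Mir155hg (chr16:84714140-84714204, plus strand, GRCm38). The 0 h libraries held 0.14 and 0.271 CPM, those of 2 h 29.6 and 32.6, those of 4 h 10.2 and 14.6, and those of 12 h 4.93 and 5.82. All 4 libraries of 2 and 4 h stood above all 4 of 0 and 12 h, which held for 8 of the 449 tested miRNAs (1.78%). They also stood above the libraries of 1, 6, 8 and 10 h, for which no share over all miRNAs is given here. The 4 h libraries lay below the 2 h ones. Over the 2 and 4 h libraries 618 reads were counted against 3 at 0 h, a ratio of 102 after scaling for library size (95% interval 34.8 to 497, counting error only). The log2 contrast was 4.16 (SE 0.265, adjusted p = 6.34e-08), and the level was 1.86 above 12 h (adjusted p = 4.65e-05). The trend did not pass (adjusted p = 0.598). The level at 4 h was below that at 2 h by 1.34 (adjusted p = 0.0029), in a comparison that 10 of 449 miRNAs passed (2.23%; 5 without 4 h replicate 1). Without that library the difference for miR-155-3p was -1.18 and no longer passed (adjusted p = 0.0907).

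miR-155-5p, the guide from the same hairpin, took another course. It stood at 76.1 and 83.2 CPM at 0 h, 174 and 180 at 2 h, 354 and 413 at 4 h, then 251 and 314 at 12 h. From 2 to 4 h the guide rose by 1.11 on the log2 scale (adjusted p = 0.000161) while the passenger fell. The guide was 1.71 above 0 h and 0.11 below 12 h (adjusted p = 1.21e-07 and 0.597), so it lay between the ends. Its contrast of 0.80 (SE 0.0905, adjusted p = 6.33e-05) came with a rising trend (adjusted p = 0.0156). Guide reads per passenger read came to 386 at 0 h, 5.69 at 2 h, 31 at 4 h and, late in the course, 52.5 at 12 h. The passenger's share of the reads of both arms was 14.9% ± 0.549 (SD, n = 2) at 2 h and 1.87% ± 0.0724 at 12 h.

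The read ends of miR-155-5p differed between the times as well. The Mir155 hairpin is printed here 5′ to 3′ with the 5p and then the 3p arm in capitals (RefSeq, GRCm38.p6), to show which bases a read can gain along the hairpin.
Mir155 hairpin: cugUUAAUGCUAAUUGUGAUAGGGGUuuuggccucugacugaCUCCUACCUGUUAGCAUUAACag
Reads that ran past the 3′ end of the 5p arm into the hairpin's own bases (3′ templated) made up 23.1% ± 1.66 of miR-155-5p reads at 0 h, 67.7% ± 1.11 at 2 h, 73.6% ± 3.32 at 4 h and 41.9% ± 0.593 at 12 h (SD, n = 2). Reads of the reference class, its templated and non-templated entries together, made up 41.4% ± 0.808, 17.9% ± 0.121, 15.4% ± 2.64 and 34.6% ± 0.689 at these times. The 4 libraries of 2 and 4 h did not overlap with the 4 of 0 and 12 h in either class. An exact 2-sided permutation test of 4 against 4 libraries, without the replicate block, gave p = 0.0286 for each, the smallest it allows. Over the 152 such tests on 38 miRNAs this is an adjusted p of 0.271, and 0 tests passed after adjustment (16 at an unadjusted p under 0.05). The number of bases gained is not given in the files.

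Fitted by themselves, the classes of miR-155-5p moved apart. The 3′ templated reads stood at 18.4 ± 2.49 CPM at 0 h, 120 ± 4.86 at 2 h, 283 ± 43.6 at 4 h and 118 ± 20.1 at 12 h (SD, n = 2). Their log2 contrast was 1.99 (SE 0.10, adjusted p = 4.42e-10), and they lay above 0 h by 3.33 and above 12 h by 0.65 (adjusted p = 3.21e-11 and 0.000688). So these reads were peak-shaped, although the total lay between the ends. Their 2 h mean was close to that of 12 h, and their highest mean came at 4 h. They stayed above the 2 h mean later, at 237 ± 54.9 CPM at 6 h, 166 ± 41.0 at 8 h and 150 ± 46.4 at 10 h. Reads of the reference class stood at 33.0 ± 2.73 CPM at 0 h, 31.6 ± 0.977 at 2 h, 58.4 ± 3.70 at 4 h and 97.6 ± 13.2 at 12 h. Their contrast in this fit was -0.39 and did not pass (adjusted p = 0.0554), and they stood 0.39 above 0 h (adjusted p = 0.101). A separate fit of all miRNAs on reference reads only gave -0.41 (adjusted p = 0.0389), the opposite sign of that over all reads. Trimmed reads were lower at 2 and 4 h, with a contrast of -0.54 (adjusted p = 0.0169), a call kept in 12 of 17 settings. They passed against 12 h (-0.80, adjusted p = 0.000697) and not against 0 h (-0.28, adjusted p = 0.282). This fit of end classes, chosen after seeing the data, called 43 of 1153 classes (3.73%), and miR-155-5p was the 1 miRNA with calls in both directions. The 43 became 19 when 0 h replicate 2 was left out, 23 when 4 h replicate 2 was, and 65 when either 10 h library was.

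**Figure D1:**
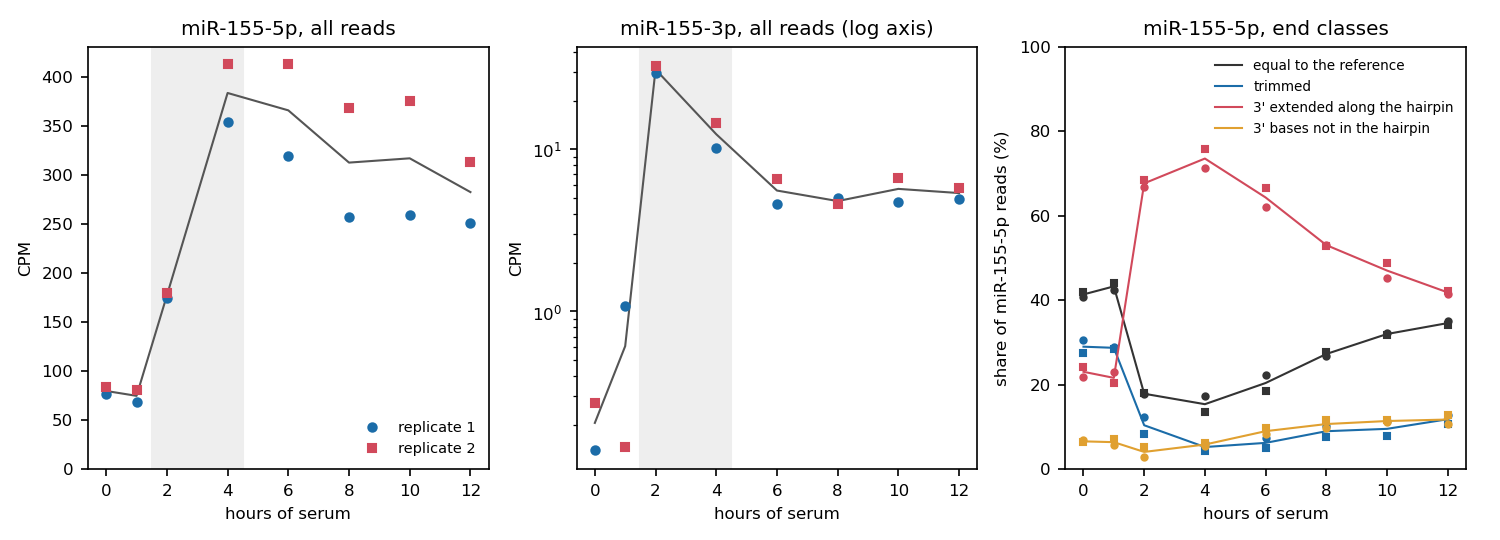
CPM of both miR-155 arms in each library over hours of serum (miR-155-3p on a log axis), and the share of miR-155-5p reads in 4 end classes in percent, with circles for replicate 1, squares for replicate 2 and lines for the mean of 2 libraries. The passenger is highest at 2 h and the guide at 4 h, and reads extended along the hairpin make up 67.7% of the guide at 2 h and 73.6% at 4 h.

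miR-29b-1-5p came next by adjusted p among the peak-shaped miRNAs that the trend missed. The miR-29 family represses collagen genes, and this passenger is cut from an exon of the noncoding RNA Gm27019 (chr6:31063023-31063093, minus strand, GRCm38). Its level was 6.16 and 6.5 CPM at 0 h, 2.69 and 6.59 at 1 h, 28.8 and 23.7 at 2 h, 33.1 and 30.2 at 4 h, then 16.3 and 24.2 at 12 h. All 4 libraries of 2 and 4 h were above both 0 h libraries, and 12 h replicate 2 overlapped with the lowest of them. The contrast was 1.37 on the log2 scale (SE 0.184, adjusted p = 0.000256). It stood 2.20 above 0 h (adjusted p = 2.96e-05) and 0.54 above 12 h (adjusted p = 0.122), so the later decline did not pass. The 3′ templated class made up 93.8% ± 1.84 of its reads at 2 and 4 h and 82.1% ± 7.91 at 0 and 12 h (SD, n = 4). This shift in share did not pass the permutation test after adjustment (adjusted p = 0.271). In the fit of end classes, chosen after seeing the data, the class passed in the contrast (1.57, adjusted p = 5.21e-05), a call kept in 17 of 17 settings. There it also passed narrowly against 12 h (0.67, adjusted p = 0.0467), a comparison not repeated under other settings. The guide miR-29b-3p, which can come from 2 loci, had a contrast of -0.64 (adjusted p = 0.138). The 1 call among the 5 tested miR-29 arms was this passenger (6.46% of all tested miRNAs were called), and the family's median was -0.12 against -0.03 over all tested.

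miR-212-5p and let-7e-3p had peaks in which all 4 libraries of 2 and 4 h stood above all 4 of 0 and 12 h, as did 8 of the 449 tested miRNAs (1.78%, and 4.23% in either direction). miR-212-5p comes from the CREB-responsive miR-212 hairpin in an intron of 1700016P03Rik (chr11:75173388-75173478, plus strand). It stood at 4.34 and 5.01 CPM at 0 h, 10.8 and 11.5 at 2 h, 9.1 and 15 at 4 h, then 8.52 and 7.86 at 12 h, a contrast of 0.89 (SE 0.158, adjusted p = 0.00257). It passed against 0 h and not against 12 h, so the later decline was not shown. Its means at 6 and 10 h were 9.74 ± 1.20 and 8.98 ± 2.30 CPM (SD, n = 2). Here the 5p arm was the more abundant, and the 3p arm, miR-212-3p, had a contrast of 0.48 (adjusted p = 0.135). miR-212-3p was at 3.97 and 3.77 CPM at 2 h and 8.34 and 7.8 at 4 h, higher at 4 h by 1.06 in log2 units (adjusted p = 0.0186), while miR-212-5p differed by 0.09 (adjusted p = 0.913). miR-132-3p of the neighbouring hairpin lay between the ends, with a contrast of 0.26 (adjusted p = 0.319) and its highest mean at 6 h.

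let-7e-3p, from a hairpin in an intron of Spaca6 (chr17:17830352-17830444, plus strand), had the smallest contrast of the 7 peaks that the trend missed and was 1 of the 5 that passed against both ends (1.11% of those tested). Its level was 38.5 and 42.1 CPM at 0 h, 60.8 and 64 at 2 h, 50.8 and 55.7 at 4 h, then 42.3 and 47.5 at 12 h. The contrast was 0.44 on the log2 scale (SE 0.0824, adjusted p = 0.0036), 0.52 above 0 h and 0.36 above 12 h (adjusted p = 0.00317 and 0.0274). The contrast was not called without the replicate block (adjusted p = 0.0622, range over its alternatives 0.000395 to 0.0622). let-7e-5p, its guide, stood at 3514 to 4511 CPM at 2 and 4 h and 3126 to 3563 at 0 and 12 h, with a contrast of 0.20 (adjusted p = 0.244).

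The other 3 peaks were rarer and less firm. miR-146b-3p, the passenger of the NF-kB-responsive miR-146b in an intron of Mfsd13a (chr19:46342762-46342870, plus strand), had 59 reads over 2 and 4 h and 19 over 0 and 12 h. Its levels were 1.42, 1.21, 2.27 and 2.99 CPM in the 2 and 4 h libraries and 0.56, 0.541, 1.05 and 0.629 in those of 0 and 12 h, so the groups did not overlap. The contrast was 1.43 (SE 0.376, adjusted p = 0.033). The guide miR-146b-5p rose with the trend (adjusted p = 0.0269) and had a contrast of 0.13. miR-182-3p, the passenger of an abundant guide (miR-182-5p, 30963 to 37433 CPM at 2 and 4 h), was at 3.55, 2.42, 5.56 and 4.42 CPM against 1.96, 1.08, 1.35 and 3.46, and its groups overlapped (contrast 1.02, SE 0.288, adjusted p = 0.0491). miR-219a-1-3p, in an exon of the noncoding RNA Gm26940 (chr17:34024983-34025092, minus strand), was at 5.67 and 11 CPM at 2 h, 13 and 13.5 at 4 h, compared with 4.9 and 3.11 at 0 h and 6.43 and 10.5 at 12 h (contrast 0.85, SE 0.209, adjusted p = 0.0225). All 3 had their highest mean at 4 h. Of the 16 fits that each left out 1 library, only those without 10 h replicate 1, 10 h replicate 2 or 12 h replicate 2 kept the call of miR-182-3p (range of adjusted p over its alternatives 0.00166 to 0.251). That of miR-146b-3p ended when any 0 or 2 h library, 4 h replicate 2 or 12 h replicate 2 was left out (range 0.00385 to 0.21), and that of miR-219a-1-3p without 4 h replicate 1, 12 h replicate 1, 0 h replicate 2 or 2 h replicate 2 (range 6.08e-05 to 0.191).

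**Figure D2:**
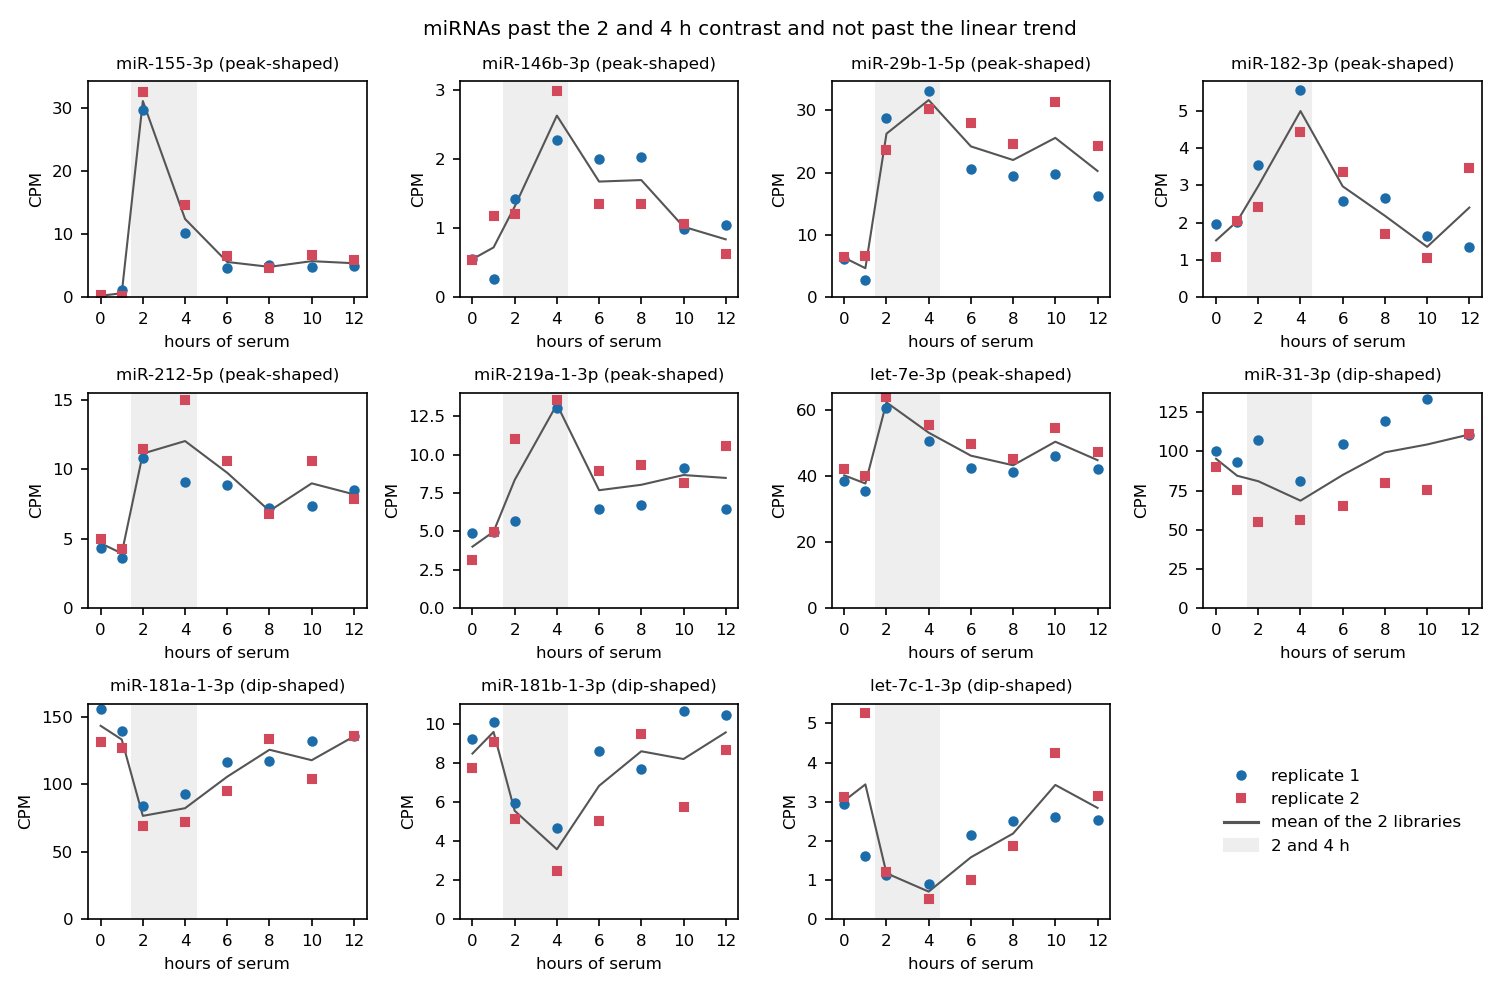
CPM of the 11 miRNAs past the contrast and not past the linear trend, in each library (circles replicate 1, squares replicate 2) over hours of serum, with the mean of the 2 libraries as a line and 2 and 4 h shaded. miR-155-3p and let-7e-3p are highest at 2 h, the other 5 peaks at 4 h, and the 4 dips reach their lowest mean at 2 or 4 h.

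The dips were led by 2 passengers from neighbouring hairpins. miR-181a-1-3p (hairpin chr1:137966455-137966541) and miR-181b-1-3p (chr1:137966639-137966718) lie 97 bases apart on the plus strand of GRCm38, in an exon of the noncoding RNA A430106G13Rik and an intron of Gm4258. The miR-181 family is best known for tuning signalling in lymphocytes and is also abundant in fibroblasts. miR-181a-1-3p stood at 155 and 131 CPM at 0 h, 83.8 and 69.1 at 2 h, 92.4 and 71.9 at 4 h, then 135 and 135 at 12 h. All 4 libraries of 2 and 4 h were below all 12 others. The contrast was -0.82 on the log2 scale (SE 0.0986, adjusted p = 9.47e-05), with -0.86 against 0 h and -0.78 against 12 h (adjusted p = 0.000116 and 0.000259). Its trend had an adjusted p of 0.726.

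miR-181b-1-3p fell from 9.23 and 7.71 CPM at 0 h to 5.96 and 5.13 at 2 h and 4.68 and 2.47 at 4 h, and stood at 10.5 and 8.65 at 12 h. These groups did not overlap either, which held for 11 of 449 miRNAs in this direction (2.45%). The contrast was -1.02 (SE 0.197, adjusted p = 0.00416), with -0.93 against 0 h and -1.10 against 12 h (adjusted p = 0.0149 and 0.00495). Neither guide was called. miR-181a-5p was at 32408 to 34926 CPM at 2 and 4 h and 30389 to 35758 at 0 and 12 h (contrast -0.01, adjusted p = 0.969), and miR-181b-5p at 4291 to 4689 and 4033 to 4487 CPM (contrast 0.06, adjusted p = 0.695). Both guides can also come from a second locus on chromosome 2, so these values do not show the guide output of the chromosome 1 hairpins alone.

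let-7c-1-3p, from an intron of the noncoding RNA Mir99ahg (chr16:77599657-77599750, plus strand), had the deepest dip. It had 27 reads over 2 and 4 h and 81 over 0 and 12 h. The levels were 1.13 and 1.21 CPM at 2 h and 0.884 and 0.52 at 4 h, against 2.94 and 3.11 at 0 h and 2.54 and 3.14 at 12 h. The groups did not overlap, but the 1 h libraries, at 1.61 and 5.27 CPM, spread widely. The contrast was -1.67 (SE 0.394, adjusted p = 0.0199), and it was lost without 0 h replicate 1, 2 h replicate 2, 4 h replicate 2 or 12 h replicate 2 (range of adjusted p over its alternatives 1.14e-05 to 0.122). let-7c-5p, the guide, stood at 7795 to 8899 CPM at 2 and 4 h and 6504 to 7774 at 0 and 12 h (contrast 0.20, adjusted p = 0.295). Among 19 tested let-7 arms 1 was higher and 1 lower in the contrast, which called 6.46% of all tested miRNAs, and their median was 0.10 against -0.03 over all tested.

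miR-31-3p, the passenger of a hairpin in an exon of AL805899.1 (chr4:88910557-88910662, minus strand), was the least firm of the dips. It stood at 107 and 54.6 CPM at 2 h, 81.1 and 55.9 at 4 h, compared with 100.4 and 90 at 0 h and 110 and 111 at 12 h, so 2 h replicate 1 overlapped with the 0 h libraries. The contrast was -0.52 (SE 0.138, adjusted p = 0.0355). It did not pass against 0 h (-0.40, adjusted p = 0.154) or against the line between 0 and 12 h (adjusted p = 0.0775), and the call was lost without any library of 4 or 8 h, or replicate 2 of 0, 2 or 12 h (range over its alternatives 0.00166 to 0.555). The guide miR-31-5p rose with the trend and had a contrast of -0.11 (adjusted p = 0.338). Against the line between 0 and 12 h 32 miRNAs passed (7.13%), and the other 10 of the 11 were among them.

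**Figure D3:**
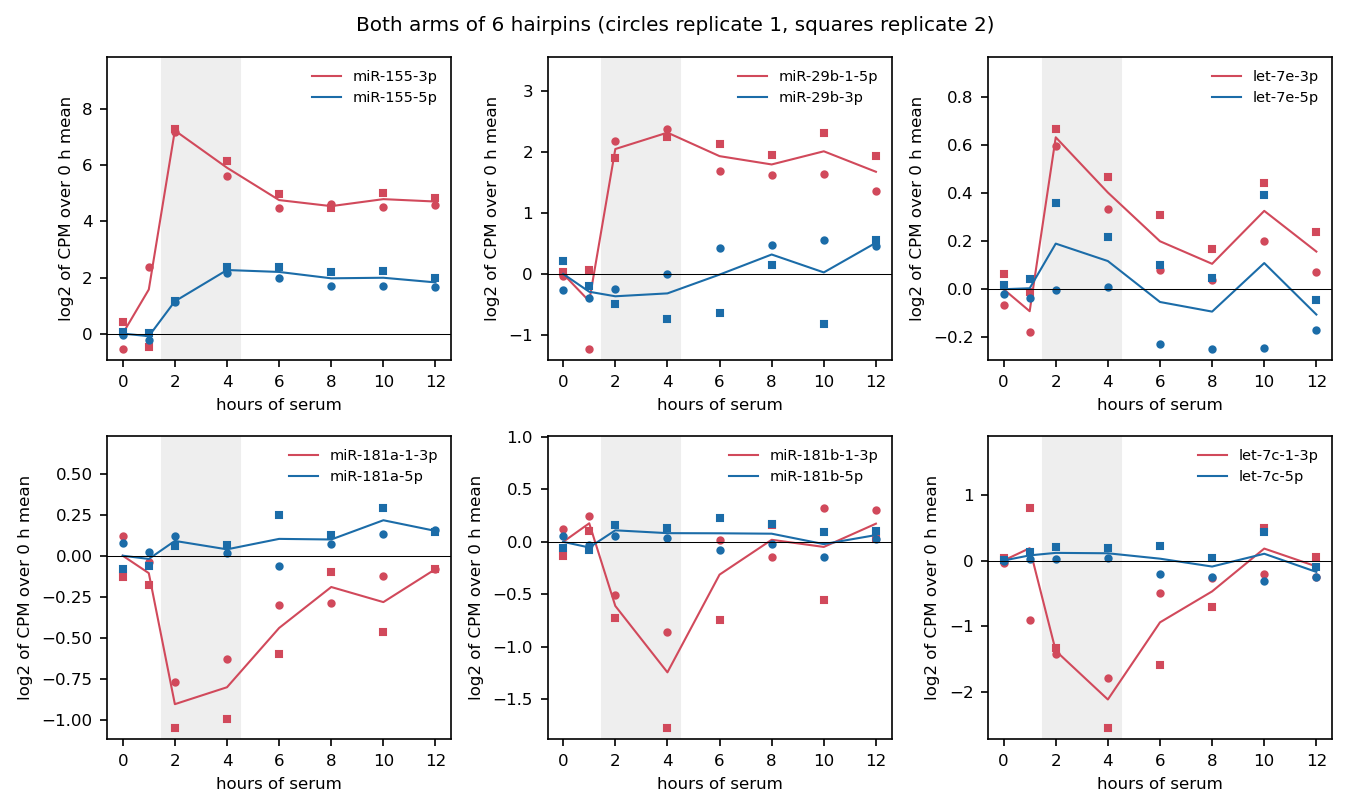
Log2 of CPM over the 0 h mean for both arms of 6 hairpins over hours of serum, with circles for replicate 1, squares for replicate 2, lines for the mean of 2 libraries and 2 and 4 h shaded; the y scales differ between panels. The arm in red peaks or dips at 2 and 4 h, and in blue miR-155-5p rises from 2 to 4 h while the other 5 arms had no call in the contrast.

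Less abundant arms made up much of the list. Of the 29 miRNAs past the contrast, 17 were the less abundant arm (58.6%), compared with 151 of the 449 tested (33.6%). No other arm was measured for 1 of the 29 and 57 of the 449. Reads of an arm that can come from 2 loci were not split between its hairpins. For such hairpins the less abundant arm of a single hairpin is therefore not settled. The contrast passed for 11.3% of the less abundant and 4.56% of the more abundant arms. Of the 11 that the trend missed 9 were less abundant arms, and the exceptions were miR-212-5p and miR-219a-1-3p. The difference between these shares was not tested. The 11 were rarer (median 8.21 CPM) than all tested miRNAs (19.8 CPM), while the median of the 29 was higher, at 47.3 CPM. In hairpins with 1 locus the passenger's share of the reads of both arms was 9.03% ± 6.84 at 2 and 4 h and 1.06% ± 0.938 at 0 and 12 h for Mir155 (SD, n = 4). It was 0.289% ± 0.0971 and 0.116% ± 0.0322 for Mir146b, 1.46% ± 0.161 and 1.24% ± 0.132 for Mirlet7e, and 0.716% ± 0.251 and 0.907% ± 0.0680 for Mir31. For Mir182 it was 0.0116% ± 0.00397 and 0.00570% ± 0.00299. For Mir212 the less abundant arm, miR-212-3p, held 33.4% ± 10.4 at 2 and 4 h and 39.2% ± 7.0 at 0 and 12 h. The ranges of the 4 libraries did not overlap for Mir155 and Mir146b and overlapped for the other 4 hairpins. These hairpins were taken because an arm of each passed the same contrast, so a shift in arm share is partly built in. How often the ranges stay apart over all hairpins with both arms is not given here.

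Set against each end alone, 54 miRNAs differed at 2 and 4 h from 0 h (12%) and 56 from 12 h (12.5%). Only 5 of the 29 past the contrast did so beyond both ends in the same direction: the peaks miR-155-3p and let-7e-3p and the dips let-7c-1-3p, miR-181b-1-3p and miR-181a-1-3p. Leaving out replicate 1 of 0, 2 or 12 h gave 3 in place of 5, and leaving out replicate 2 of 0 or 4 h gave 2. The remaining 6 of the 11 missed by the trend passed against 1 end, miR-31-3p against 12 h and the 5 others against 0 h.

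**Figure D4:**
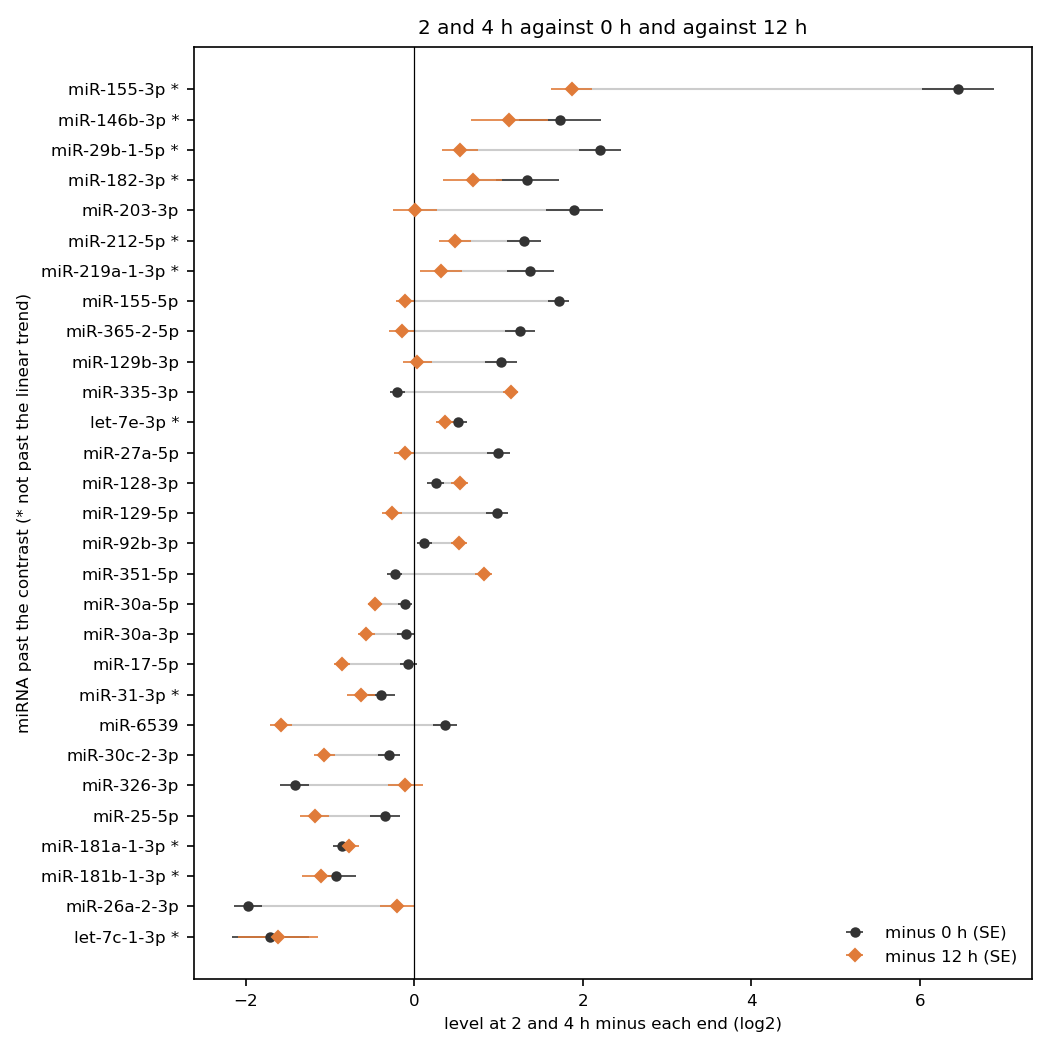
For each of the 29 miRNAs past the contrast, the level at 2 and 4 h minus that at 0 h (circles) and minus that at 12 h (diamonds) on the log2 scale, with bars of 1 SE. Both markers lie on 1 side of 0 for the 22 peak- and dip-shaped miRNAs and on opposite sides for the 7 between the ends; asterisks mark the 11 that the linear trend missed.

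The other 11 shaped miRNAs also had a linear trend. miR-26a-2-3p, a passenger from the growth-restraining miR-26 family whose hairpin overlaps an annotated exon of Ctdsp2 (chr10:126995530-126995613, plus strand), fell early and came back little. It stood at 21.8 and 23.8 CPM at 0 h, 5.39 and 8.15 at 2 h, 4.55 and 5.46 at 4 h, then 7.33 and 5.98 at 12 h (contrast -1.09, SE 0.158, adjusted p = 0.000515). It was 1.97 below 0 h (adjusted p = 1.06e-06) and 0.20 below 12 h (adjusted p = 0.597). Its lowest mean came at 6 h.

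Among abundant miRNAs miR-17-5p, the growth-promoting guide of the miR-17-92 cluster, was at 141 and 150 CPM at 2 h, 174 and 188 at 4 h, compared with 169 and 172 at 0 h and 309 and 278 at 12 h (contrast -0.46, adjusted p = 0.00206). It was 0.07 below 0 h (adjusted p = 0.689), so the contrast came with the rise to 12 h (trend adjusted p = 9.65e-07), and against the line between 0 and 12 h it was not called (adjusted p = 0.0775). The same held for both arms of miR-30a, of which miR-30a-5p is the more abundant. miR-30a-5p had a contrast of -0.29 (adjusted p = 0.0217) and -0.11 against 0 h (adjusted p = 0.428), and miR-30a-3p -0.34 (adjusted p = 0.0217) and -0.10 (adjusted p = 0.547). miR-128-3p, at 252 to 324 CPM at 2 and 4 h and 184 to 265 at 0 and 12 h, had a contrast of 0.40 (adjusted p = 0.00611), with its highest mean at 1 h. miR-92b-3p had a contrast of 0.33 (adjusted p = 0.0149), 0.12 above 0 h and 0.53 above 12 h (adjusted p = 0.428 and 0.000844). The contrast of both was lost without the replicate block (adjusted p = 0.373 each, ranges over their alternatives 0.000138 to 0.373 and 0.000395 to 0.373). That of miR-92b-3p also ended without 0 h replicate 1 or replicate 2 of 2, 4 or 12 h, and those of miR-30a-5p and miR-30a-3p each ended in 5 of the 16 fits that left out 1 library, among them both without replicate 2 of 2 or 4 h.

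The remaining miRNAs past the contrast are named here after their values were seen. The shaped ones were miR-30c-2-3p (-0.69), miR-25-5p (-0.77), miR-326-3p (-0.76), miR-129b-3p (0.53) and miR-203-3p (0.95). The hairpin of miR-30c-2-3p lies 19361 bases from that of miR-30a on chromosome 1. This miRNA was at 35 to 39.2 CPM in the 2 and 4 h libraries, below all 4 of 0 and 12 h (as were 11 of 449 tested, 2.45%). It was also below the libraries of 1, 6, 8 and 10 h, for which no share over all miRNAs is given here. Its level was 1.07 below 12 h (adjusted p = 1.87e-05) and 0.30 below 0 h (adjusted p = 0.164). Besides miR-155-5p, 6 lay between the ends: miR-335-3p (0.47), miR-351-5p (0.29), miR-365-2-5p (0.56), miR-27a-5p (0.44), miR-129-5p (0.36) and miR-6539 (-0.61). miR-27a-5p was the 1 of these that did not pass the trend (adjusted p = 0.782). Its levels were 39.4 and 46.3 CPM at 0 h, 96.9 and 132 at 1 h, 75.2 and 120 at 2 h, 68.5 and 84.8 at 4 h, then 69.8 and 120 at 12 h, so its highest mean came at 1 h. Among these 11 the calls of miR-30c-2-3p, miR-25-5p, miR-335-3p and miR-6539 were kept whichever library was left out. On reference reads only miR-25-5p was at -0.25 and not called (adjusted p = 0.619). Against the line between 0 and 12 h miR-335-3p was at 0.13 and miR-6539 at -0.12, neither called (adjusted p = 0.338 and 0.607), and miR-6539 was also not called without the replicate block (adjusted p = 0.138) or with the mean of 0 and 10 h as reference (adjusted p = 0.148). miR-326-3p lost its call without 4 h replicate 2, miR-27a-5p without replicate 1 of 4 or 12 h or replicate 2 of 0 or 2 h, and miR-351-5p and miR-365-2-5p without any 0 h library or replicate 2 of 2, 4 or 12 h. miR-203-3p lost it without any library of 0, 2 or 12 h or 4 h replicate 2, miR-129b-3p without any of 0, 4, 8 or 12 h or 2 h replicate 2, and miR-129-5p without any of 0, 2, 4, 6 or 8 h or 12 h replicate 1. The hairpins of miR-129-5p and miR-129b-3p overlap on opposite strands of chromosome 2, and how the authors counted strands is not given in the sources used here.

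Of the 22 tested arms of miRNAs described as induced by serum or growth factors, 5 were higher and 1 lower in the contrast, and 16 were not called. The higher ones were miR-155-3p, miR-155-5p, miR-146b-3p, miR-212-5p and miR-27a-5p, the lower one was miR-31-3p, and the median was 0.03 against -0.03 over all tested miRNAs. miR-221-3p and miR-222-3p, which repress the cell-cycle inhibitor Cdkn1b, had contrasts of -0.02 and -0.30 (adjusted p = 0.956 and 0.0702), and miR-222-3p was 0.95 below its 12 h level (adjusted p = 1.53e-05). miR-21a-5p and miR-22-3p, 2 of the most abundant fibroblast miRNAs, had -0.27 and -0.07 (adjusted p = 0.243 and 0.538). miR-128-1-5p, which stood at 17.6 and 18 CPM at 1 h, was at 6.95 and 4.98 at 2 h and 8.72 and 10.5 at 4 h, against 6.57 and 6.9 at 0 h (contrast -0.09, adjusted p = 0.824).

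Of the 11 tested miR-30 arms 0 were higher and 3 lower, with a median of -0.10. For miR-17-92 and its paralogous clusters 0 of 16 were higher and 2 lower (median -0.14), and those 2 were miR-17-5p and miR-25-5p. In the miR-26 family 1 of 5 was lower (median -0.09), and in the miR-23/27/24 clusters 1 of 11 was higher (median 0.00). The 14 tested arms of the miR-15/16 family, which represses G1 cyclins, and the 7 of the p53-responsive miR-34/449 family had 0 calls (medians -0.08 and -0.01). In these sets the share of calls is to be read beside the 6.46% of all tested miRNAs.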

How the data were processed

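Libraries came from 1000 ng total RNA and an Illumina TruSeq small RNA kit, per the labels' protocols. The authors deposited 1 table of unnormalized counts, with several sequence classes for each miRNA, per the file headers, and the submitters' processing notes name CASAVA 1.8.0. Of the aligner, miRBase release, build and strand rule nothing is stated there. For each of 1167 mature miRNAs the 8 classes (reference, trimmed, 3′ and 5′ extended, each templated or not) were summed. Class meanings were read from their names. Of 6511 entries 1 identical duplicate was dropped, and 3 without a class suffix (7 reads) were not used.

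Counts were tested with edgeR 4.0.16 (quasi-likelihood F-test, limma 3.58.1, R 4.3.3), TMM factors of 0.935 to 1.07, the filterByExpr filter (minimum 10 counts), and Benjamini-Hochberg adjusted p under 0.05 over all 449 miRNAs kept (718 were left out). All 16 libraries entered 1 fit with time as a factor and the replicate number as a block. Each adjusted p for 1 miRNA in the text comes from this fit unless another is named. SE is the difference divided by the root of F, CPM uses TMM-scaled totals, and differences are log2 values. The linear trend used time as a number. "Rose" and "fell" refer to tests passed.

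The replicate number marks the sequencing run. Deviations from the time means correlated between libraries of the same number at 0.134 to 0.602 over 28 pairs of times, so the numbers pair the libraries. Replicates differed by more than counting noise (chi-square per degree of freedom 58.8 to 324), and no library was a duplicate. The fit was tested on simulated counts.

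Named miRNAs are the shaped ones that the trend missed (up to 10 each way), those beyond both ends, the 5 most abundant shaped ones, their other arms and 11 set miRNAs. Members, lists and tests were chosen with earlier results of these data known. Alternatives were no block, DESeq2 1.42.0, limma-voom, other scalings and filters, reference reads only, other reference times and each library left out. The end-class fit was added after seeing the data. Arms and hairpins were placed with GENCODE M21 and RefSeq tables of GRCm38.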

Additional observations from a re-analysis of the deposited data

Results flagged for a closer look

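The 2 arms of miR-155 moved in opposite directions between 2 and 4 h, and each passed the test of 4 h against 2 h. The difference was -1.34 on the log2 scale for miR-155-3p (adjusted p = 0.0029) and 1.11 for miR-155-5p (adjusted p = 0.000161, edgeR's quasi-likelihood F-test, Benjamini-Hochberg). The call for the passenger was lost without 4 h replicate 1 (-1.18, adjusted p = 0.0907). The passenger was lower at 4 h in both experiments and the guide higher in both. They were the only members of the 29 past the contrast whose 2 and 4 h levels differed in this test, so for the other 27 the mean of 2 and 4 h stands for levels that were not shown to differ.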

How the results depend on the processing

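Of the 29 miRNAs past the contrast, 14 were kept in all 16 fits that left out 1 library, and 7 also in each of the 11 other settings that tested them. Of the 11 that the trend missed, 5 were among these 7: miR-181a-1-3p (tested in all 11), miR-29b-1-5p and miR-212-5p (in 10) and miR-155-3p and miR-181b-1-3p (in 9), the rest being the 10 CPM filter or the fit on reference reads. Without the replicate block the contrast called 13 miRNAs (5 higher), 4 h against 2 h called 4, the 11 became 6, the 5 beyond both ends became 2, and the end-class fit called 10 in place of 43. With a filter at 10 CPM these were 19 in the contrast, 5 missed by the trend and 2 beyond both ends. Without a low-count filter 20 shaped miRNAs were missed by the trend, and 4 h against 2 h called 19 (16 with limma-voom). Reference reads only gave 7 missed by the trend and 3 beyond both ends, and turned miR-155-5p to -0.41 and miR-6539 to 0.13 (adjusted p = 0.781, range 0.000315 to 0.781; the cause was not tested). Leaving out 1 library gave 16 to 30 for the contrast, 5 to 14 for 4 h against 2 h, 6 to 14 missed by the trend, 2 to 6 beyond both ends and 19 to 65 for end classes. For end classes the lowest values came without replicate 2 of 0 h (19) and of 4 h (23), and the highest without either 10 h library (65). Differences of rare passengers are limited by counts: let-7c-1-3p rests on 27 reads at 2 and 4 h and miR-146b-3p on 59.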

Other observations

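Some miRNAs that did not pass the contrast on all reads passed in 1 or more end classes of the added fit. Not all are described here, and those described were picked after their values were seen. Of the 34 miRNAs with a called class, 23 had passed on all reads. Of the others, reference-class reads of miR-5121 had the largest contrast, 2.07 on the log2 scale (adjusted p = 0.0175, edgeR quasi-likelihood test), and lay between the ends. Reference-class reads of miR-149-5p were 1.06 higher at 2 and 4 h than the mean of 0 and 12 h (adjusted p = 0.00175, same test), and also lay between the ends. For miR-30c-5p the 3′ reads with bases not in the hairpin and the trimmed reads were 0.69 and 0.58 higher (adjusted p = 0.00193 and 0.02), both above 12 h (1.38 and 1.89). The first did not pass against 0 h (0.01, adjusted p = 0.992), and the trimmed reads were 0.72 below 0 h (adjusted p = 0.00429), so they lay between the ends. Trimmed reads of miR-145a-5p, a smooth muscle and fibroblast miRNA, had a dip with a contrast of -0.39 (adjusted p = 0.0175) and passed against 0 h and 12 h (adjusted p = 0.0286 and 0.0233). Reads of miR-296-5p with bases not in the hairpin had a contrast of -0.79 (adjusted p = 0.00579), and 3′ templated reads of miR-708-3p one of -0.93 (adjusted p = 0.0316). Both passed against 12 h (adjusted p = 0.000429 and 0.0211), and neither passed against 0 h (-0.53 and -0.86, adjusted p = 0.0932 and 0.0722).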
